A study of Mus musculus with 12 samples.

Results

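Cells of mouse embryos that carried the receptor Flk1 on their surface were compared with cells that lacked it, whether or not they also carried Endoglin. The comparison takes all 12 arrays of the study: the 6 arrays of Flk1-positive cells (Eng-Flk1+ and Eng+Flk1+, 3 each) against the 6 arrays of Flk1-negative cells (Eng-Flk1- and Eng+Flk1-, 3 each), with Endoglin status as a covariate. A gene was called when its Flk1 difference passed an adjusted p of 0.05 (limma, Benjamini-Hochberg over all genes tested) and had the same sign among Endoglin-negative and among Endoglin-positive arrays. The 4 fractions were sorted with antibodies to both proteins from 1 pool of about 300 CD-1 embryos of 25 litters at embryonic day 7.5, with 3000 cells a sample, and each sample's RNA was amplified by PCR and read on a 1-colour Agilent array. The labels name no mutation and no treatment of the embryos in any fraction. Because of the single pool, p-values here reflect how much sorted samples of the same cells vary, a spread that may be technical, and say nothing of variation from embryo to embryo.

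Flk1, encoded by Kdr, is the main signalling receptor for vascular endothelial growth factor (VEGF). At gastrulation it appears on mesoderm that has left the primitive streak, and the precursors of endothelium, of the first blood cells and of part of the heart pass through a Flk1-positive stage. The ETS factor Etv2 acts early in this lineage, and Tal1, Fli1 and Hhex act with it or after it. Cells without Flk1 at this stage include the epiblast and other epithelia, the visceral endoderm, extraembryonic ectoderm and red blood cells that have already formed.

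A level is the log2 signal of a probe minus the 75th percentile of its array, and differences are Flk1-positive minus Flk1-negative on the same log2 scale, with the standard error (SE) of the model. A difference of levels compares arrays for 1 probe and says nothing of one gene's level against another's. RNA of these fractions is bulk RNA, so fewer cells of a type and less RNA per cell cannot be told apart.

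The sorted marker was checked first. Kdr (probe at chr5:76214981-76215040, build mm8) read 0.90, 0.47 and 1.96 in Eng-Flk1+ and 1.53, 1.85 and 1.53 in Eng+Flk1+. It read -4.41, -7.28 and -6.91 in Eng-Flk1- and -3.27, -6.80 and -6.07 in Eng+Flk1-. All 6 Flk1-positive arrays lay above all 6 Flk1-negative arrays, by 7.16 on average (exact permutation test over 924 splits, two-sided, p = 0.00216, the smallest it can give). Among the 6 Flk1-negative arrays, 3 measured Kdr well above background, so the size of the difference rests in part on values near background. With normexp background correction the difference was 4.02, and a second Kdr probe, above background on 8 arrays, gave 6.54. Since cells were sorted on its protein, this is a check of the labels. The gene of the other sorted marker, Eng, differed with Flk1 by 1.30 ± 0.48 (limma adjusted p = 0.358). Its levels ran from -1.47 to 1.62 on the Endoglin-negative arrays and from -0.16 to 2.76 on the Endoglin-positive ones, so the transcript did not separate the arrays by Endoglin status.

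The summed linear level of the 4 marker genes of Flk1-positive cells (Kdr, Etv2, Mef2c and Rhoj) was 9.99 to 23.5 on Flk1-positive arrays and 0.268 to 0.701 on Flk1-negative arrays. Kdr is the gene of the sorted marker, and Etv2, Mef2c and Rhoj are among the genes called in this same comparison. The gap between these sums is therefore no separate check of the fractions. The 3 Eng-Flk1- arrays stood apart from the rest. Between 66.5% and 76.3% of their spots were well above background, against 80.2% to 83.3% on the other 9, and their pair correlations were 0.674 to 0.719 against 0.812 to 0.911 within the other fractions. Results are therefore also given for the other 9 arrays. Slides were not balanced either: slide 1 held the 3 Eng-Flk1- arrays and 1 Eng-Flk1+ array, slide 3 the 3 Eng+Flk1- arrays and 1 Eng+Flk1+ array, and slide 2 Flk1-positive arrays alone.

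Of 22844 genes tested, 147 were called (0.643%). Among them 124 were higher in Flk1-positive cells (0.543%) and 23 were lower (0.101%). In 135 of them (0.591%) the 3 Flk1-positive arrays lay wholly on 1 side of the 3 Flk1-negative arrays within each Endoglin stratum, 113 higher (0.495%) and 22 lower (0.0963%). Over all genes tested, called or not, 450 (1.97%) lay on the same side without overlap in both strata. The differences of the called genes ran from 1.72 to 7.22 upward and from -2.15 to -10.06 downward, with a median size of 3.78. Of the 147, 107 have gene names, 87 higher and 20 lower, and the other 40 are clone, accession or predicted-gene identifiers. Well above background on all 12 arrays were 72 of them, and 42 were well above background on no Eng-Flk1- array. When each array was centred on its median in place of the 75th percentile, which moves the median difference of all genes from -0.09 to -0.40, the 116 genes called were 83 higher and 33 lower.

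**Figure D1:**
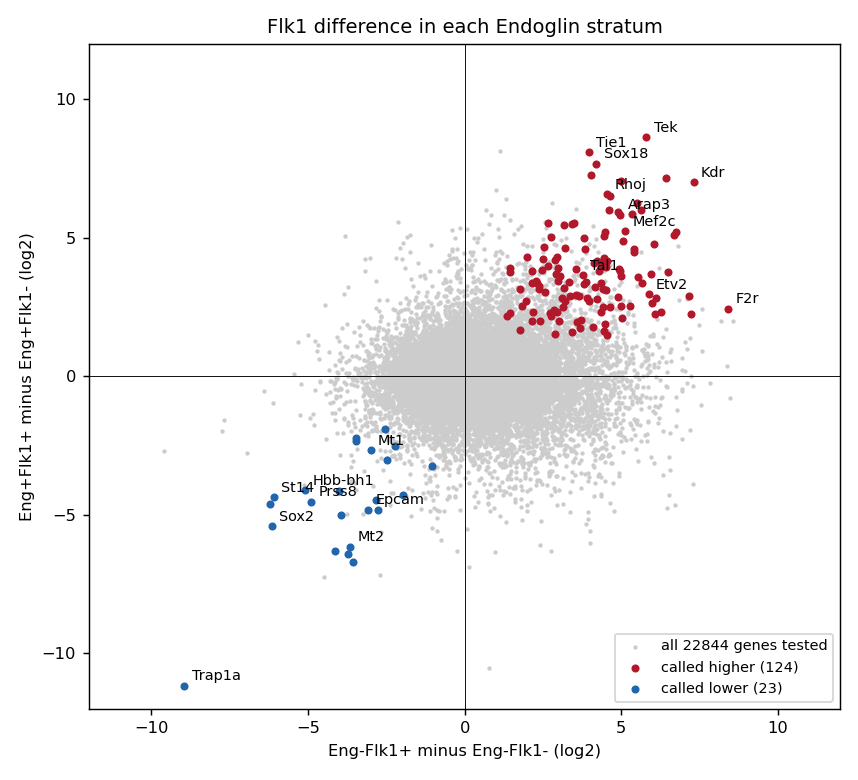
Flk1 difference of each gene among Endoglin-negative arrays (x axis, Eng-Flk1+ minus Eng-Flk1-) and among Endoglin-positive arrays (y axis, Eng+Flk1+ minus Eng+Flk1-), both log2, for all 22844 genes tested (grey), the 124 genes called higher (red) and the 23 called lower (blue). Called genes lie in the upper right and lower left, as the rule requires, while the cloud of all genes shows little relation between the axes (r = 0.0742 across genes).

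With slide as a term in the model, 5 genes were called (0.0219%), of which 4 belong to the 147: Rhoj, Arap3, Sox18 and the clone AK054216. The other 143 had adjusted p-values from 0.0531 to 0.728 in that fit, all 147 kept their sign, and the median size of their differences was 3.59 against 3.78 without the term. Within slide 1, where 1 Eng-Flk1+ array meets 3 Eng-Flk1- arrays, all 147 had the sign of the full comparison. Within slide 3, where 1 Eng+Flk1+ array meets 3 Eng+Flk1- arrays, 146 did, and Fli1 has no value there because its spot was marked as an outlier. These within-slide differences rest on 1 Flk1-positive array each and were not tested. Where every array had a value, the Flk1 difference with slide in the model was the mean of these same within-slide differences. It therefore rested on the same Flk1-positive arrays and was no separate check, since the remaining slide held Flk1-positive arrays alone. For Fli1 it was the slide 1 value alone, 1.99. For the 135 genes without overlap within strata the signs within slides, and so with slide in the model, were fixed in advance. The reason is that slides 1 and 3 each held arrays of 1 stratum alone. When the 3 Eng-Flk1- arrays were left out and the Endoglin term was kept, the Flk1 difference was that of the Endoglin-positive stratum, with the spread of 9 arrays. In this 9-array fit, chosen after seeing the data, 127 genes were called (0.556%), 73 higher (0.32%) and 54 lower (0.236%). Of the 147, 49 were among them. All 147 kept their sign, but the calling rule had fixed this in advance through the sign in the Endoglin-positive stratum. A fit of the same 9 arrays with no Endoglin term, which sets all 6 Flk1-positive arrays against the 3 Eng+Flk1- arrays and so also takes in Endoglin differences, called 126 genes, 65 higher and 61 lower, of which 45 belong to the 147. Of the 51 called genes named here, 34 stayed called whichever single array was left out. The other 17 lost the call without at least 1 array: Acvrl1, Aplnr, Bmp2, Col13a1, Epcam, F2r, Fgd5, Fli1, Flt1, Fmr1nb, Lama4, Myorg, Rnf128, Slc2a3, Sox2, Spint2 and Zic2. The total count fell to 82 without Eng-Flk1+ replicate 3.

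**Figure D2:**
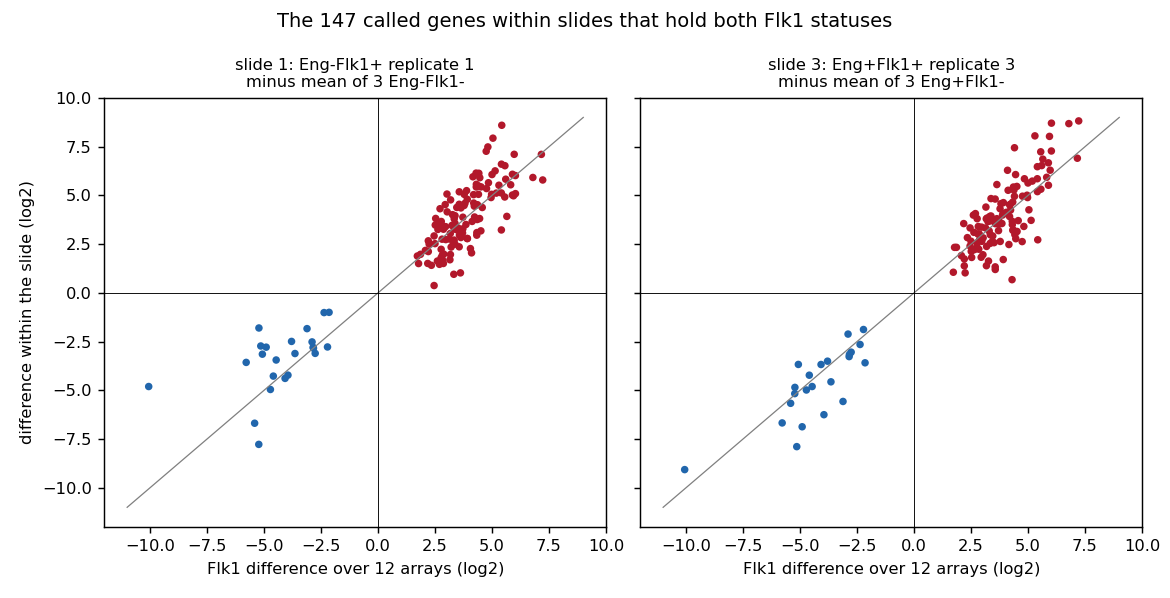
Differences of the 147 called genes within the slides that hold both Flk1 statuses (y axis, log2) against the Flk1 difference over 12 arrays (x axis, log2). The left panel is slide 1 and the right panel slide 3, red points are genes called higher, blue points genes called lower, and the line marks equal values. All points of slide 1 and all 146 of slide 3 lie in the quadrants of equal sign. For the 135 genes without overlap within strata this was fixed in advance.

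Genes of all 3 VEGF receptors were higher in Flk1-positive cells. Of the 10 receptors, co-receptors and ligands of the VEGF pathway, 3 were called higher (Kdr, Flt4 and Flt1) and 0 lower. These calls were 30% of the list, against 0.643% of all genes tested. The list's median difference was 1.38 against -0.09 over all genes. Both the count and the median include Kdr, the gene of the sorted marker, whose level is a check of the labels. This list and those below were chosen with earlier results of these data known. Each list's count of calls stands beside the 0.643% called over all genes tested, 0.543% higher and 0.101% lower. Flt4, the receptor of VEGF-C and VEGF-D, read -1.10, -0.54 and -0.18 in Eng-Flk1+ and 1.35, 0.99 and 1.77 in Eng+Flk1+, against -6.95, -5.36 and -6.06 in Eng-Flk1- and -6.58, -2.33 and -5.78 in Eng+Flk1-. Every Flk1-positive array lay above every Flk1-negative one (5.89 ± 0.644, limma adjusted p = 0.00196), and Flt4 was well above background on 3 of the 6 Flk1-negative arrays. Flt1, a high-affinity VEGF receptor that acts largely as a decoy, was higher by 3.63 ± 0.717 (adjusted p = 0.0473) and did not overlap within either stratum, though 1 Eng+Flk1- array, at -0.54, lay above the 3 Eng-Flk1+ arrays, which read -0.76, -2.21 and -0.79. The co-receptor Nrp2 had a difference of 2.97 ± 0.652, which did not pass (0.0776). Of the list's 10 genes, 7 had positive differences in both strata, as did 5167 of all 22844 genes tested. The differences of Kdr, Flt4 and Flt1 were 7.01, 5.85 and 4.08 with slide in the model, where none of the list passed. In the 9-array fit Kdr (adjusted p = 0.0133) and Flt4 (0.0349) were called and Flt1 was not (0.305). The other 4 Flt1 probes gave differences of 2.74 to 6.27, and Flt1 did not pass with normexp background correction (1.79, 0.153). Flt4 passed with that correction, at a smaller difference of 3.00 (limma adjusted p = 0.00489).

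Transcription factors of blood and endothelial precursors formed the next group. Of 18 blood and hemangioblast regulators, 4 were called higher (Etv2, Hhex, Tal1 and Fli1) and 0 lower, with a list median of 0.86. These calls were 22.2% of the list, against 0.643% of all genes tested. Etv2 (probe at chr7:30342517-30342576, mm8) read 3.73, 2.69 and 4.002 in Eng-Flk1+ and 2.62, 1.20 and 1.95 in Eng+Flk1+, against -2.39, -2.09 and -2.75 in Eng-Flk1- and -1.49, -0.95 and -0.67 in Eng+Flk1-. The groups did not overlap, and the difference was 4.42 ± 0.556 (limma adjusted p = 0.00463). It was 5.88 in the Endoglin-negative stratum and 2.96 in the Endoglin-positive one, a gap that did not pass the interaction test (adjusted p = 0.160). Tal1, a factor required for all blood formation, had nearly equal differences in the strata, 3.78 and 3.66. It read 3.56, 2.99 and 3.82 in Eng-Flk1+ and 3.95, 3.32 and 3.68 in Eng+Flk1+, all above the Flk1-negative arrays, of which the highest was Eng-Flk1- replicate 3 at 1.38 (3.72 ± 0.487, limma adjusted p = 0.00571).

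Hhex, a homeobox factor of early endothelium, blood and anterior endoderm, was higher by 3.86 ± 0.453 (limma adjusted p = 0.00298), with 0.64 to 1.92 on the Flk1-positive arrays and -3.72 to -1.14 on the Flk1-negative ones. Fli1, an ETS factor of blood and endothelium, was higher by 2.88 ± 0.493 (0.0271), and its value for Eng+Flk1+ replicate 3 was missing from the fit. Hlx, a homeobox gene of mesoderm named after its values were seen, was called (2.08 ± 0.326, 0.0148). Its strata differed by 2.15 and 2.00, but its levels also differed with Endoglin: Eng-Flk1+ read -1.63, -2.36 and -0.99, which overlaps Eng+Flk1- at -0.71, -1.68 and -0.52. With slide in the model none of the 18 regulators passed, and the differences of Etv2, Tal1, Hhex and Fli1 were 4.56, 3.79, 3.53 and 1.99. In the 9-array fit 4 of the 18 were called higher, among them Tal1 (0.0132), Fli1 (0.0161) and Hhex (0.0407), while Etv2 (2.96, 0.0533) and Hlx (2.00, 0.136) did not pass. Against Eng+Flk1- with no Endoglin term the difference of Hlx was 0.66 (0.908). Fli1 (1.75, 0.0802) and Hlx (1.33, 0.0759) did not pass with normexp background correction.

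Promoter sequences of 4 called genes are shown because the ETS factors Etv2 and Fli1 rose with Flk1 and each of these promoters holds at least 1 ETS core. Each is the 250 bases before the RefSeq start site on GRCm38.p6, read 5′ to 3′ on the gene's strand, with capitals at matches to the ETS core CAGGAA, the GATA core AGATAA, the SOX core ACAAAG or the FOX core GTAAACA on either strand. They lie at chr12:75308063-75308312 (plus strand, Rhoj), chr4:94739039-94739288 (plus, Tek), chr7:30635853-30636102 (minus, Etv2) and chr19:37434591-37434840 (plus, Hhex).
Rhoj: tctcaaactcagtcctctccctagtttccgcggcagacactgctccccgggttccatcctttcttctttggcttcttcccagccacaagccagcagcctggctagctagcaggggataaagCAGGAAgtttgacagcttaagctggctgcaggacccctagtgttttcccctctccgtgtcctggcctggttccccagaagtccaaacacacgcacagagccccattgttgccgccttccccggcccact
Tek: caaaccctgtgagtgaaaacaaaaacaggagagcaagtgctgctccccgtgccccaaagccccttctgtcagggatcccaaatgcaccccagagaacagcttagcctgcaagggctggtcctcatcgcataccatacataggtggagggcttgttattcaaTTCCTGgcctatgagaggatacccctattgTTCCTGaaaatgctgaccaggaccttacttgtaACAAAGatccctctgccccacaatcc
Etv2: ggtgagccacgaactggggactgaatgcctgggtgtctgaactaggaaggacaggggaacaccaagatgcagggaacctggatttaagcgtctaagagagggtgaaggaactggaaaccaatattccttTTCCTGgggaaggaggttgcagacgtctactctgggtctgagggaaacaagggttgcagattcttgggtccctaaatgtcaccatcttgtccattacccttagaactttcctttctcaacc
Hhex: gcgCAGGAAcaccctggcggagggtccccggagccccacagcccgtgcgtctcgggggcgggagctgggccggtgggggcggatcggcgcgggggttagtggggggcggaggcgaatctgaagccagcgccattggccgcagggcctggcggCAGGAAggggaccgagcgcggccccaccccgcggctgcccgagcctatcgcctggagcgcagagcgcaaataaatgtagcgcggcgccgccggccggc

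Rhoj held 1 ETS core with its first base 129 bases before the start site, Etv2 held 1 at 121 bases, Hhex 2 at 247 and 98 bases, and Tek 2 at 89 and 59 bases with a SOX core at 26 bases. A promoter was found for 75 of the 147 called genes. The ETS core occurred in a promoter of 18 of the 59 genes called higher (30.5%) and of 28.3% of all 27025 genes with a promoter of the same length. These letters were thus about as frequent in both. A gene with more than 1 promoter was counted when any of them held the core. The GATA core was in 10.2% of the 59 and 11.4% of all, the SOX core in 16.9% and 18.6%, and the FOX core in 6.78% and 3.54%. Such matches describe the letters in this window and are no evidence of binding.

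Endothelial genes gave the most calls of the 19 lists, though the share called was larger in the VEGF list (30%). Of 24, 7 were called higher (Tek, Sox18, Egfl7, Plvap, Tie1, Cdh5 and Acvrl1) and 0 lower. These calls were 29.2% of the list, against 0.643% of all genes tested. The list's median difference was 1.76, with 1.90 in the Endoglin-negative and 2.79 in the Endoglin-positive stratum. Of the 24, 18 were positive in both, against 5167 of all 22844 genes tested. Tek, the receptor of the angiopoietins (probe at chr4:94366188-94366246, mm8), read -0.59, -1.35 and 0.20 in Eng-Flk1+ and 2.17, 1.77 and 2.24 in Eng+Flk1+. It read -7.73, -4.07 and -7.35 in Eng-Flk1- and -8.40, -7.98 and -3.37 in Eng+Flk1-, and only 2 of these 6 arrays measured it above background. Among genes called higher it had the largest difference (7.22 ± 0.971, limma adjusted p = 0.00653).

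Sox18, a transcription factor of forming vessels and lymphatics, read 0.09, -1.46 and -0.68 in Eng-Flk1+ and 1.72, 0.78 and 1.77 in Eng+Flk1+, against -5.21, -4.95 and -4.51 in Eng-Flk1- and -5.57, -6.04 and -7.15 in Eng+Flk1-. The groups lay at least 3 log2 units apart (5.94 ± 0.64, limma adjusted p = 0.00196), and Sox18 also passed with slide in the model (6.50 ± 0.73, 0.0277). It was well above background on 4 of the 6 Flk1-negative arrays, so the size rests in part on values near background. With normexp background correction the difference was 3.34 (limma adjusted p = 0.00597). Egfl7, a secreted protein of endothelial cells, was well above background on all 12 arrays and was higher by 4.22 ± 0.462 (limma adjusted p = 0.00196), with 3.84 and 4.61 in the strata. Plvap, a protein of endothelial fenestrae, was higher by 3.34 ± 0.43 (0.00528). Acvrl1 (ALK1), the type I receptor that binds BMP9 beside Endoglin, was higher by 3.77 ± 0.739 (0.0459), although 2 of its Eng+Flk1- arrays, at 0.84 and 0.70, were close to the lowest Flk1-positive array at 0.83.

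Tie1 and Cdh5, named after their values were seen, were measured above background on 4 and 3 of the 6 Flk1-negative arrays. Tie1, an orphan receptor that pairs with Tek, was higher by 6.03 ± 0.947 (limma adjusted p = 0.0148), and it is the 1 called gene of the list whose arrays overlapped: Eng-Flk1+ read -0.59, -3.19 and -1.37 and Eng-Flk1- read -2.92, -7.03 and -7.11. Cdh5, the VE-cadherin of endothelial junctions, was higher by 5.65 ± 0.93 (limma adjusted p = 0.0181), with -1.77, -0.66 and -2.58 in Eng-Flk1+ and 3.10, 2.39 and 2.12 in Eng+Flk1+. The summed level of 6 endothelial markers was high in Eng+Flk1+ alone: it was 26.6 to 40.4 there, 2.95 to 6.59 in Eng-Flk1+, 1.15 to 6.22 in Eng-Flk1- and 1.92 to 2.39 in Eng+Flk1-. Of the 6, Emcn alone was not higher in Eng+Flk1+, at -6.52, -5.10 and -4.92. Between Eng-Flk1+ and Eng-Flk1- these sums overlapped, but a linear sum is led by its brightest members. In Eng-Flk1- replicate 2 these were Cldn5 at 1.66 and Pecam1 at 1.55. Between these fractions Tek and Cdh5 did not overlap (differences of 5.80 and 4.02), while Pecam1, Tie1, Cldn5 and Emcn did. The part of the marker levels in the result was not tested. In the 9-array fit 7 of the 24 were called higher, among them Tek, Sox18, Egfl7, Tie1 and Cdh5 but not Plvap (0.0533) or Acvrl1 (0.394), and with slide in the model 1, Sox18. With normexp background correction neither Tie1 (3.50, 0.0892) nor Cdh5 (3.18, 0.0726) passed, and the difference of Tek was 3.53. Second probes of Tek, above background on 8 arrays, and of Cdh5, above background on 10, gave 2.75 and 2.82.

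**Figure D3:**
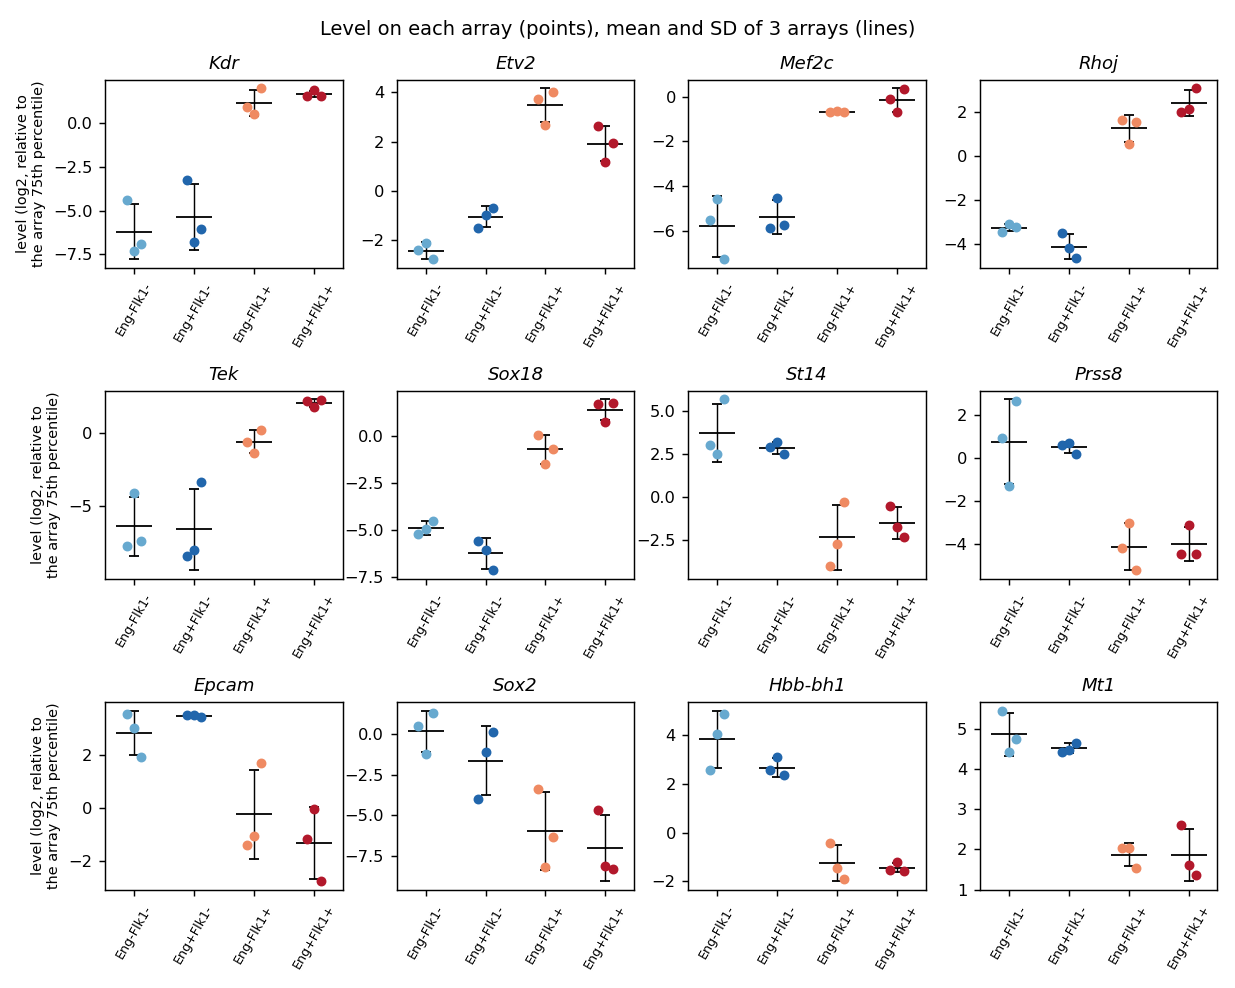
Level of 12 genes on each array (points, log2 relative to the array's 75th percentile) by fraction, with the mean (long line) and SD (bars) of 3 arrays. The first 6 genes were called higher and the last 6 lower in Flk1-positive cells; Rhoj reads 0.58 to 3.10 on Flk1-positive arrays and -4.66 to -3.12 on Flk1-negative ones, with no overlap.

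Small GTPases and their regulators in vessels included Rhoj. Of 22 genes, 3 were called higher (Rhoj, Arhgef15 and Fgd5) and 0 lower, with a list median of 0.55. These calls were 13.6% of the list, against 0.643% of all genes tested, but the list was chosen with earlier results of these data known. Rhoj, a small GTPase of endothelial cells (probe at chr12:76312870-76318971, mm8, a span that includes an intron), read 1.64, 0.58 and 1.58 in Eng-Flk1+ and 2.04, 2.17 and 3.10 in Eng+Flk1+, against -3.45, -3.12 and -3.26 in Eng-Flk1- and -3.53, -4.20 and -4.66 in Eng+Flk1-. It was well above background on all 12 arrays, its difference was 5.56 ± 0.448 (limma adjusted p = 0.000534), and with slide in the model it was 6.08 ± 0.59 (0.0242). Within slides 1 and 3 Rhoj differed by 4.92 and 7.24, and the value with slide in the model is their mean. A second Rhoj probe, also above background on all 12 arrays, differed by 0.56 alone, so the size depends on the probe, and the mean of both gave 3.06 (0.00312).

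Arhgef15, an exchange factor of endothelial cells, was higher by 3.72 ± 0.589 (limma adjusted p = 0.0148), and 1 Eng-Flk1- array, replicate 3 at 2.13, lay well above the others of that fraction at -1.58 and -1.17. Fgd5, an exchange factor for Cdc42 in endothelium, was higher by 4.98 ± 0.852 (0.0218), with 1 Eng+Flk1- array at -0.11 against -5.28 and -5.80 on the others of that fraction. Arap3, which inactivates small GTPases downstream of phosphoinositide 3-kinase and belongs to no list here, had the lowest adjusted p of all genes tested. It read 2.40, 1.27 and 3.07 in Eng-Flk1+ and 3.98, 3.27 and 3.64 in Eng+Flk1+, against -2.44, -3.41 and -2.33 in Eng-Flk1- and -2.33, -2.13 and -2.17 in Eng+Flk1-. The difference of Arap3 was 5.41 ± 0.38 (limma adjusted p = 0.000233), and 5.49 ± 0.57 with slide in the model (0.0242). A second Arap3 probe, above background on all 12 arrays, gave 2.27. Of the 22 list genes 2 were called in the 9-array fit, Rhoj and Arhgef15.

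Genes of the heart field did not follow as a group. Of 17 cardiac mesoderm genes, 1 was called higher (Mef2c) and 0 lower. The list median was 0.48, and it turned negative with slide in the model (-0.08). Mef2c, a MADS box factor of the second heart field and of endothelium (probe at chr13:84141092-84141151, mm8), read -0.67, -0.65 and -0.66 in Eng-Flk1+ and -0.08, -0.69 and 0.35 in Eng+Flk1+, against -5.54, -4.58 and -7.26 in Eng-Flk1- and -5.89, -4.51 and -5.75 in Eng+Flk1-. The difference was 5.19 ± 0.456 (limma adjusted p = 0.000908), and nearly the same in the strata, 5.13 and 5.24. A second Mef2c probe was above background on 0 arrays. The difference was 2.47 with normexp background correction, and in the 9-array fit Mef2c was the 1 cardiac gene called higher, beside 1 called lower. Myl7, an atrial myosin light chain, differed by 0.69 ± 0.501 (0.655), and Gata6 by 1.48 ± 1.03 (0.646). Hdac7, a class IIa deacetylase of endothelium that binds Mef2 factors, was in no list and was called (4.19 ± 0.54, 0.00528). It read 2.54 to 4.05 on Flk1-positive arrays and -2.94 to 0.38 on Flk1-negative ones.

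Among genes outside the lists, Grap, an adaptor of Ras signalling, was higher by 4.76 ± 0.603 (limma adjusted p = 0.00484), Rassf2, a Ras-association protein, by 4.51 ± 0.61 (0.00656), Cnrip1, which binds the cannabinoid receptor, by 4.45 ± 0.495 (0.00214), and Pkdcc, a secreted kinase, by 4.20 ± 0.63 (0.0118). All were well above background on all 12 arrays and did not overlap within strata. Grap and Rassf2 each had 1 Flk1-negative array far above its fraction, Grap at 0.40 in Eng+Flk1- replicate 2 and Rassf2 at -1.24 in Eng-Flk1- replicate 1. The other 3 Cnrip1 probes gave 0.81 (above background on all 12 arrays), 3.10 and 3.59, so its size depends on the probe. Rassf2 (0.00345) and Cnrip1 (0.00909) passed in the 9-array fit, and Grap (0.0683) and Pkdcc (0.0832) did not.

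Several called genes encode receptors, secreted proteins or matrix, and all in this paragraph were named after their values were seen. Aplnr, the apelin receptor of migrating mesoderm and vessels, was well above background on all 12 arrays. It read 3.20 to 4.50 on Flk1-positive arrays and 1.74 to 2.84 on Flk1-negative ones, a difference of 1.78 ± 0.322 (limma adjusted p = 0.0297). F2r, the thrombin receptor, differed by 5.43 ± 0.94 (0.0231). Fat4, a giant cadherin, differed by 5.82 ± 0.71 (0.00395) and was measured above background on 2 of 6 Flk1-negative arrays. Npr3, a clearance receptor of natriuretic peptides (3.56 ± 0.413, 0.00274), and Fstl1, a secreted BMP-binding protein (2.96 ± 0.338, 0.00243), were above background on all 12. Of matrix genes, Fbn1 (fibrillin, 3.57 ± 0.503, 0.00837), Lama4 (a laminin chain of vessel walls, 2.63 ± 0.469, 0.0273) and Col13a1 (a transmembrane collagen, 2.21 ± 0.406, 0.0332) were higher. With slide in the model none of these passed, and their differences lay between 1.92 and 5.74. Aplnr, Fat4, Npr3 and Fstl1 passed in the 9-array fit, and F2r, Fbn1, Lama4 and Col13a1 did not. Probes disagreed for Npr3, where a second, above background on all 12 arrays, gave 0.02 and the remaining one 5.70, and for Fat4, where a second, above background on 10, gave 0.87.

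Mesenchymal and Notch genes had positive medians without a call. Of 18 mesenchymal transition genes 0 passed in either direction. Their median difference was 1.25, it was 1.22 and 1.44 in the strata, and 11 were positive in both, against 5167 of all 22844 genes tested. Zeb1, a repressor of epithelial genes, had a difference of 2.38 ± 0.504 (limma adjusted p = 0.0656), the filament Vim 2.49 ± 0.558 (0.0848) and the receptor Pdgfrb 2.84 ± 1.09 (0.380). Twist1, a helix-loop-helix factor of mesoderm, differed by 3.88 ± 0.892 (0.0937) and was above background on no Eng-Flk1- array; Eng-Flk1+ was at least 37.4-fold higher than Eng-Flk1- when the dim arrays were set to the lowest signal measured above background. Of the 18, 2 were called higher in the 9-array fit. Of 15 Notch receptors, ligands and Hey targets 0 passed, with a median of 0.83; Notch1 had a difference of 2.03 ± 0.515 (0.136) and Hey1 of 2.63 ± 0.904 (0.313), and Notch1 was called in the 9-array fit (3.36, 0.0143). Of 18 TGF-beta and BMP receptors and targets, Acvrl1 was the 1 call, and the median was 0.47; the 9-array fit called 0 higher and 1 lower.

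**Figure D4:**
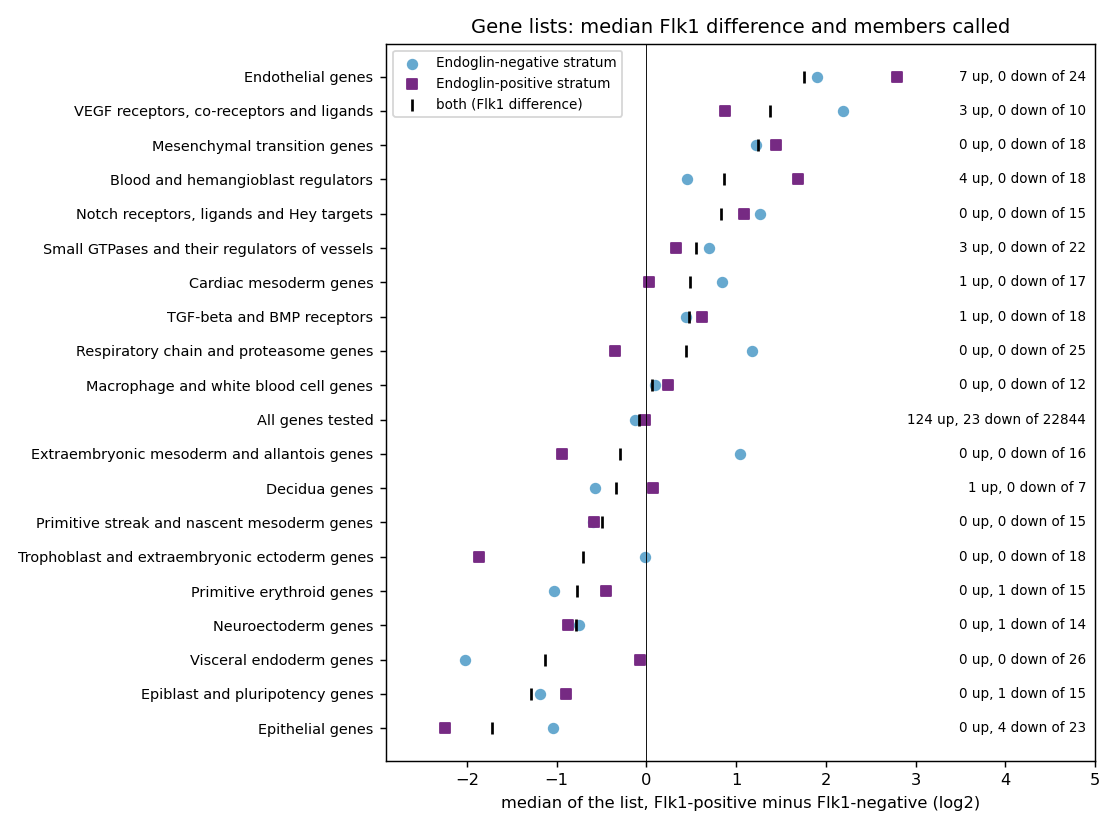
Median Flk1 difference (x axis, log2) of the members tested in each of 19 gene lists and over all genes, for Endoglin-negative arrays (circles), Endoglin-positive arrays (squares) and both (bars), with the number of members called higher (up) and lower (down) of those tested. Endothelial genes lie to the right in both strata and epithelial genes to the left, while visceral endoderm and trophoblast genes lie far from 0 in 1 stratum and allantois genes on opposite sides.

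Epithelial genes gave the most calls on the lower side. Of 23, 0 were called higher and 4 lower (St14, Spint2, Prss8 and Epcam), and the median difference was -1.72. These calls were 17.4% of the list, against 0.643% of all genes tested. In both strata 18 of the 23 were negative, against 6403 of all 22844 genes tested. All 4 act at the cell surface: St14 (matriptase) and Prss8 (prostasin) are membrane serine proteases that activate each other, Spint2 is a Kunitz inhibitor of such proteases, and Epcam is an adhesion molecule of epithelial cells. St14 (probe at chr9:30850003-30852442, mm8) read -4.02, -2.71 and -0.27 in Eng-Flk1+ and -0.49, -1.71 and -2.30 in Eng+Flk1+, against 3.04, 2.54 and 5.69 in Eng-Flk1- and 2.89, 3.22 and 2.50 in Eng+Flk1-. The groups did not overlap and St14 fell by 5.23 on the log2 scale (SE 0.738, limma adjusted p = 0.00837). A second St14 probe, above background on all 12 arrays, gave -2.34.

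Prss8 (probe at chr7:127717295-127717353, mm8) read -4.20, -3.03 and -5.21 in Eng-Flk1+ and -4.50, -3.11 and -4.48 in Eng+Flk1+, against 0.91, -1.29 and 2.66 in Eng-Flk1- and 0.60, 0.69 and 0.20 in Eng+Flk1-. Its difference was nearly equal in the strata, -4.91 and -4.53 (-4.72 ± 0.623 together, limma adjusted p = 0.00598). Epcam was steady in Eng+Flk1-, at 3.51, 3.51 and 3.42, and spread widely in Eng-Flk1+, at -1.39, -1.06 and 1.70 (-3.95 ± 0.655, 0.0181). Spint2 differed by -5.07 ± 0.841 (0.0181) and was measured above background on 1 Eng+Flk1+ array of 3. With slide in the model none of the 4 passed, and the differences of St14, Prss8, Epcam and Spint2 were -6.47, -4.97, -5.23 and -3.41. In the 9-array fit 4 of the 23 were called lower, among them Prss8 (0.0204) but not St14 (0.0928), Epcam (0.0699) or Spint2 (0.0533).

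Genes of the epiblast and of neuroectoderm gave 1 call each. Of 15 epiblast genes Sox2 was called lower, and the median was -1.28. Sox2, a factor of pluripotent and neural cells, read -3.38, -8.20 and -6.36 in Eng-Flk1+ and -4.69, -8.13 and -8.31 in Eng+Flk1+, against 0.49, -1.22 and 1.28 in Eng-Flk1- and -3.98, -1.08 and 0.14 in Eng+Flk1-. It was above background on 2 of 6 Flk1-positive arrays, and 1 Eng+Flk1- array lay below 1 Eng-Flk1+ array (-5.78 ± 0.997, limma adjusted p = 0.0225). Utf1 (-1.28 ± 0.302, 0.102), Zfp42 (-1.41 ± 0.322, 0.0916) and Dnmt3b (-1.49 ± 0.443, 0.227) did not pass. Zic2, a zinc finger factor of neural plate, was the 1 call among 14 neuroectoderm genes (-2.22 ± 0.435, 0.0464), whose median was -0.78. Sp8 had a difference of -4.87 ± 1.27 that did not pass (0.149). The summed level of 4 epiblast markers was 24.3 to 63.1 in Eng-Flk1-, 7.81 to 11.7 in Eng+Flk1- and 3.66 to 8.07 on Flk1-positive arrays, and its part in these results was not tested. Neither Sox2 (0.221) nor Zic2 (0.227) passed in the 9-array fit, which called 1 other epiblast gene lower.

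Of 15 primitive erythroid genes, 1 was called lower (Hbb-bh1), 0 were called higher and the median was -0.77. Hbb-bh1, an embryonic beta-like globin (probe at chr7:103715614-103715673, mm8), read -0.44, -1.45 and -1.89 in Eng-Flk1+ and -1.54, -1.22 and -1.56 in Eng+Flk1+, against 2.56, 4.05 and 4.86 in Eng-Flk1- and 2.57, 3.07 and 2.33 in Eng+Flk1-. The groups did not overlap (-4.59 ± 0.44, limma adjusted p = 0.00112; -4.25 ± 0.59 with slide in the model, 0.0711), and Hbb-bh1 was called in the 9-array fit too (0.00909). A second Hbb-bh1 probe, above background on 8 arrays, gave -9.32. The alpha globin Hba-a1, whose transcript is nearly identical to that of Hba-a2, differed by -9.60 in the Endoglin-negative and by -2.68 in the Endoglin-positive stratum and did not pass (-6.14 ± 1.26, 0.0575). Hba-x, the embryonic alpha-like globin, did not pass either (-4.53 ± 1.18, 0.149). The summed level of 5 red cell markers was 23.6 to 40.5 in Eng-Flk1-, 7.29 to 14.9 in Eng+Flk1- and 0.977 to 3.25 on the Flk1-positive arrays, and its part in these results was not tested.

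The metallothionein genes Mt1 and Mt2 were both lower in Flk1-positive cells. Metallothioneins are small proteins that bind zinc and copper. Mt1 and Mt2 are neighbours with similar sequence, so their probes may share signal. Mt1, named after its values were seen, read 2.04, 2.03 and 1.55 in Eng-Flk1+ and 2.61, 1.62 and 1.36 in Eng+Flk1+, against 5.46, 4.42 and 4.75 in Eng-Flk1- and 4.43, 4.48 and 4.66 in Eng+Flk1- (-2.83 ± 0.319, limma adjusted p = 0.00229). Mt2 read 2.27, 1.25 and 0.68 in Eng-Flk1+ and -0.84, -0.95 and -1.97 in Eng+Flk1+, so it also differed between the Flk1-positive fractions, against 4.25 to 5.64 on the Flk1-negative arrays (-4.90 ± 0.525, 0.00196). With slide in the model neither passed, at -3.00 for Mt1 (0.0903) and -4.83 for Mt2 (0.118). Both were called in the 9-array fit. A second Mt1 probe, above background on all 12 arrays, gave -0.63.

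The largest difference of the 147 was that of Trap1a, an X-linked gene of the placenta and of tumours, named after its values were seen. It read 2.79 to 4.01 in Eng-Flk1- and 4.21 to 5.09 in Eng+Flk1-, against -1.24, -8.39 and -6.51 in Eng-Flk1+ and -8.21, -6.77 and -4.34 in Eng+Flk1+. It was above background on 2 of the 6 Flk1-positive arrays, so the difference of -10.06 ± 1.1 (limma adjusted p = 0.00196) rests on values near background. Frem2, a matrix protein of epithelial basement membranes, was lower by the same test (-5.41 ± 0.675, 0.00459), as was Atp1b1, a subunit of the sodium pump (-3.79 ± 0.613, 0.0171), both named after their values were seen. Of the genes measured above background on all 12 arrays, Sdc4, a surface proteoglycan (-3.64 ± 0.525, 0.00986), Rnf128, a ubiquitin ligase (-3.11 ± 0.589, 0.0390), Slc2a3, a glucose transporter (-2.89 ± 0.553, 0.0407), Myorg, a glycosidase (-4.08 ± 0.673, 0.0181), and Fmr1nb (-4.47 ± 0.815, 0.0315) were lower without overlap within strata. Of the genes of this paragraph, Frem2 (0.0880), Slc2a3 (0.181) and Myorg (0.0599) did not pass in the 9-array fit. Other probes gave -1.93 for Sdc4, -0.91 for Frem2, and 0.12 and -0.76 for Slc2a3. As the mean of all probes neither Sdc4 (0.0702) nor Slc2a3 (0.247) passed, and with normexp background correction Myorg did not (0.0511).

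Markers of cell types that were high in 1 Flk1-negative fraction alone gave no call over both strata. Of 26 visceral endoderm genes 0 passed either way. Their median difference was -2.02 in the Endoglin-negative and -0.07 in the Endoglin-positive stratum, and the summed level of 6 markers was 32.4 to 163 in Eng-Flk1- and at most 4.08 elsewhere. Apoa1, an apolipoprotein of yolk sac endoderm, read 4.98, 3.48 and 6.07 in Eng-Flk1- and from -2.29 to 0.77 on the other arrays (-3.54 ± 0.982 over both strata, limma adjusted p = 0.185), and Cubn, its endocytic receptor, did not pass either (-3.27 ± 0.86, 0.152). Of 18 trophoblast genes 0 passed, with medians of -0.01 and -1.86 in the strata. Their summed marker level was 6.69 to 9.74 in Eng+Flk1- and at most 2.12 elsewhere. Elf5, a factor of extraembryonic ectoderm, read 0.34, 0.81 and 1.64 in Eng+Flk1- and from -3.95 to -1.93 elsewhere (-2.66 ± 0.549, 0.0591), and the homeobox gene Rhox9 had a like pattern (-1.42 ± 0.495, 0.324). Of the 18, 4 were called lower in the 9-array fit, among them Elf5 (-4.16, 0.00909) and Rhox9 (-2.67, 0.0408). Of the allantois, streak, macrophage and respiratory chain lists, with 16, 15, 12 and 25 genes, 0 members passed. Of 7 decidua genes Bmp2, which mesoderm and endoderm also express, was called higher (2.97 ± 0.58, 0.0453); 1 of its Eng+Flk1- arrays read 0.30 and the others -3.16 and -3.15. Bmp2 did not pass in the 9-array fit (0.260).

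Few genes were called in both strata on their own. In a model of the 4 fractions, 377 genes were higher (1.65%) and 62 lower (0.271%) in Eng-Flk1+ than in Eng-Flk1-, while 35 were higher (0.153%) and 26 lower (0.114%) in Eng+Flk1+ than in Eng+Flk1-. Both lists shared 22 genes with the same sign, 5.01% of the first and 36.1% of the second. Of the 439 genes called among Endoglin-negative arrays 258 (58.8%) had the same sign among Endoglin-positive arrays, and of the 61 called there 51 (83.6%) had the same sign among Endoglin-negative arrays. Over all genes tested 50.6% had the same sign in both. Genes are not independent replicates.

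The interaction test, which asks whether the Flk1 difference itself depends on Endoglin status, called 63 genes (0.276%), of which 2 are among the 147. In 59 of the 63 the difference was larger among Endoglin-negative arrays, and in 53 the strata had opposite signs. The 4 genes of lowest p were Dad1, a subunit of the oligosaccharyltransferase, with differences of 6.76 and -0.74 in the strata, the nuclear receptor coactivator Pnrc1 with 6.79 and -1.20, the ribosome assembly factor Wdr74 with 5.46 and -2.62, and the Mediator subunit Med26 with 6.95 and -0.53. Their interaction terms were -7.50 ± 0.568, -7.99 ± 0.746, -8.08 ± 0.786 and -7.49 ± 0.753, with adjusted p-values of 0.0016, 0.0046, 0.0046 and 0.0048 in limma. For each the 3 Eng-Flk1- arrays were the low ones: Dad1 read -4.09, -3.60 and -3.26 there and 1.08 to 3.34 on all other arrays. Pnrc1 and Med26 were above background on no Eng-Flk1- array, where Eng-Flk1+ was at least 52.7-fold and 36.9-fold higher. The 25 respiratory chain and proteasome genes, which all cells use, had a median of 1.17 in the Endoglin-negative and -0.35 in the Endoglin-positive stratum, and their mean level was 0.44 to 1.14 in Eng-Flk1- and 1.81 to 2.94 on the other arrays. Its part in the interaction calls was not tested.

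Also among the interaction calls were Bmp4, the BMP ligand of extraembryonic mesoderm and ectoderm, and Foxf1, a forkhead factor of lateral and extraembryonic mesoderm, both named after their values were seen. Bmp4 read -3.72, -1.44 and -3.24 in Eng-Flk1- and 1.50 to 3.68 on the other arrays, with stratum differences of 4.82 and -1.31 (interaction -6.13 ± 0.878, limma adjusted p = 0.0239). Foxf1 read -3.98, -4.27 and -4.80 in Eng-Flk1-, 0.81, 1.00 and 1.43 in Eng-Flk1+, 0.71, 0.87 and 0.47 in Eng+Flk1- and 0.09, -3.43 and -0.93 in Eng+Flk1+ (interaction -7.54 ± 1.06, 0.0223). F2r was called by both tests: its difference was positive in both strata, and larger among Endoglin-negative arrays, where it was above background on no Eng-Flk1- array and at least 81.4-fold higher in Eng-Flk1+, than among Endoglin-positive ones (2.44; interaction -5.98 ± 0.695, 0.0072). With slide in the model 0 interactions passed (1424 at an unadjusted p under 0.05 in limma), and the count ran from 25 (without Eng+Flk1- replicate 2) to 312 (without Eng-Flk1- replicate 2) when single arrays were left out. The interaction calls of Bmp4 and Foxf1 were lost without either of Eng-Flk1+ replicates 1 and 3 and without Eng+Flk1- replicate 2, that of Bmp4 also without Eng+Flk1+ replicate 2 or Eng+Flk1- replicate 3, and that of Foxf1 without Eng+Flk1- replicate 1, at adjusted p-values from 0.0538 to 0.0682.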

How the data were processed

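RNA of 12 sorted samples was read on 1-colour Agilent arrays (4 arrays to a slide, 3 slides). Per the labels' protocols, 250 ng of amplified cDNA was labelled with Cy3. Per the file headers, Agilent Feature Extraction (version 10.5.1.1) gave background-subtracted intensity per spot, with no scaling between arrays, and flags of 0 or 1 (other) for background, saturation and outliers. The authors' deposited table holds the same intensity divided by the array median, and was used as an alternative.

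The 1639 control spots and outlier spots were left out. The log2 intensity minus the array's 75th percentile was averaged per probe, and each gene took its brightest probe on average. Names were updated through RefSeq (GRCm38.p6): 14761 genes by accession, 2114 by symbol, 1055 by synonym and 4914 as in the file. Tested were 22844 genes whose probe passed the background flag on all 3 arrays of at least 1 fraction; 185 values in 166 genes were missing. Limma (3.58.1, R 4.3.3) fitted Flk1 and Endoglin status, and 4 fractions for strata and interaction. Differences of genes near background rest on dim or substituted signals, and the number of arrays limits precision. The script was tested on simulated data.

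Named genes were the sorting markers, Etv2, Mef2c, Rhoj, the 10 largest non-overlapping rises and falls above background on all 12 arrays, lower bounds, the 4 lowest interaction p-values and up to 4 genes of lowest p in each of 19 lists. Members, lists and rule were chosen with earlier results of these data known.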

Additional observations from a re-analysis of the deposited data

Results flagged for a closer look

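Among the 6 arrays of one Flk1 status, 13 of 142 groups examined had 1 array far from the others by Dixon's criterion. Its chance rate of about 1 in 20 holds for independent groups of like samples. Here each group mixed both Endoglin fractions, and the genes were chosen with results of these data known. The 13 of 142 therefore cannot be set against that rate. Among Flk1-negative arrays, Eng-Flk1- replicate 3 was high for St14 (5.69, next 3.22), Spint2 (1.78, next 0.21) and Dnmt3b (5.25, next 3.10) and low for Epcam (1.92, next 3.03). Eng-Flk1- replicate 2 was low for Arap3 (-3.41, next -2.44) and Eng-Flk1- replicate 1 high for Mt1 (5.46, next 4.74). Eng+Flk1- replicate 2 was high for Grap (0.40, next -2.89) and Flt4 (-2.33, next -5.36), replicate 3 for Fgd5 (-0.11, next -4.25) and replicate 1 for Flt1 (-0.54, next -4.12). Among Flk1-positive arrays, Eng-Flk1+ replicate 3 was high for Hba-a1 (0.58, next -1.61) and Hba-x (-1.04, next -4.98), and Eng+Flk1+ replicate 1 was low for Gata6 (-1.94, next 0.38).

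The Flk1 difference itself differed between the Endoglin strata by limma's interaction test for 7 named genes. The difference among Endoglin-positive minus that among Endoglin-negative arrays was -6.13 for Bmp4, -7.49 for Med26, -7.50 for Dad1, -5.98 for F2r, -7.54 for Foxf1, -7.99 for Pnrc1 and -8.08 for Wdr74.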

How the results depend on the processing

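No named gene and no Kdr value turned its sign under any alternative run. For genes without overlap within strata, the sign with slide as a fixed block was fixed in advance. The main call count of 147 was 236 with the mean of all probes, 72 with genes above background on all 12 arrays, 5 with slide as a fixed block, 512 with slide as a random block (within-slide correlation -0.151), 97 with the replicate block, 260 with the mean of stratum contrasts from 4 fractions, and 241 and 76 in the Endoglin-negative and Endoglin-positive stratum alone. The count of 135 without overlap was 211 with the mean of all probes, 68 above background on all 12 arrays, and 4 and 268 with slide as a fixed and random block. The 63 interactions were 39 with normexp, 40 with quantile normalization, 33 with median centring and 33 with the authors' table, 21 above background on all 12 arrays, 0 with slide as a fixed block and 26 with the replicate block. Kdr in 1 stratum differed by 7.31 and 7.01, where exact tests of 3 against 3 cannot go below p = 0.1. Of the 51 called genes named, 19 shrank by more than 1.5 times with normexp, to 4.02 for Kdr, 3.53 for Tek, 2.75 for Fat4 and 2.47 for Mef2c, and 6 lost the call (Cdh5, Fli1, Flt1, Hlx, Myorg and Tie1). With the mean of all probes 6 shrank as much, to 3.06 for Rhoj, 2.26 for Mef2c, 2.14 for Fat4, -1.18 for Slc2a3, -1.73 for Mt1 and -3.16 for Frem2, Hbb-bh1 grew to -6.95, and 4 lost the call (Arhgef15, Col13a1, Sdc4 and Slc2a3). Without the 3 Eng-Flk1- arrays 21 lost the call with the Endoglin term (an alternative chosen after seeing the data) and 23 without it. Leaving out 1 array gave 82 (without Eng-Flk1+ replicate 3) to 172 calls, 81 (the same array) to 168 without overlap, 25 to 312 interactions and 6.86 to 7.67 for Kdr. Interactions numbered 182, 312 and 128 without Eng-Flk1- replicates 1, 2 and 3, 26 and 28 without Eng-Flk1+ replicates 1 and 3, and 25 and 40 without Eng+Flk1- replicates 2 and 3. Over named genes and interactions, leaving out 1 array ended between 6 and 18 calls, most without Eng-Flk1+ replicate 3. The cause of these changes was not tested. Replicate numbers did not pair samples: deviations of same-numbered arrays correlated from -0.0611 to 0.0139, and 94 of the 147 genes stayed called with the replicate block. Signal near background limits the differences of genes dim in 1 Flk1 status.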
